A study of Mus musculus with 27 samples.

Results

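Voltage-gated sodium channels generate the rising phase of the action potential. Each channel has a pore-forming alpha subunit, which senses voltage and conducts sodium, and associated beta subunits, single-pass membrane proteins with an immunoglobulin-like domain that adjust gating and surface density. In the retina these channels are best known from ganglion cells, whose axons carry spikes to the brain, and from spiking amacrine cells and some bipolar cells. The expression of 7 subunit genes was followed in developing mouse retina. These were the alpha subunit genes Scn1a (Nav1.1), Scn2a1 (Nav1.2), Scn3a (Nav1.3) and Scn8a (Nav1.6), and the beta subunit genes Scn2b, Scn3b and Scn4b. Members were taken by symbol, and all 7 were found among the 38168 features of the expression table. The question was whether the balance between subunit genes switched over the 7 ages sampled.

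Whole retinas came from C57BL/6J mice, with no engineered allele or drug treatment in any group. There were 3 libraries at embryonic day 14 (E14), 3 at E17, 4 at postnatal day 1 (P1), 3 at P6, 4 at P15, 4 at P28 and 6 at P60, 27 in all. Each library was made from retinas pooled over several embryos or mice, except that, by the paper, 4 of the 6 P60 libraries came from individual mice. Samples up to P1 were of mixed sex and later ones were male, so sex and age cannot be told apart across that border. Values are in cpm, the reads of a gene scaled to a fixed library total. They are for whole genes, so alternative exons of a subunit, such as the neonatal and adult forms known for several alpha subunits, were not resolved.

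The reads counted in the values of a library, recovered from them, were between 7077781 and 11332323, and 1 read was worth 0.0882 to 0.141 cpm. The paper gives a larger number of reads sequenced per library. Among the P60 libraries, replicates 1 and 2 stood apart from replicates 3 to 5. Over all features the chi-square divided by its degrees of freedom was 13.4 to 21.5 between these sets, against 3.29 between replicates 1 and 2. Each list of retinal cell type markers had reads at every age, but some markers were under 0.5 cpm by their means at some ages. At E14 these were Thy1 (ganglion cell), Gad1 and Chat (amacrine), and Vsx1, Cabp5 and Grm6 (bipolar). Further ones at E14 were Pde6a and Cnga1 (rod), Opn1mw and Pde6h (cone) and Aqp4 (Müller glia). At P28 they were the progenitor markers Mki67, Top2a and Fgf15. Progenitor markers summed to 5021 to 5151 cpm at E14 and to 20.8 to 36.1 cpm at P60. Rod markers went from 16.7 to 23.5 cpm to 24456 to 29792 cpm over the same ages. The 9 ganglion cell markers summed to 1394 to 1441 cpm at E14, 593 to 688 at P1, 986 to 1359 at P15 and 693 to 855 at P60. That sum is not the course of each marker. In the comparison of mature with embryonic retina described below, 3 of these 9 markers rose, 5 fell and 1 did not pass. Over all features 35.0% were called higher and 40.4% lower in it. The 7 amacrine markers went from 145 to 168 cpm at E14 to 859 to 973 at P1 and 546 to 577 at P60. The 6 bipolar markers went from 23.9 to 27.1 cpm at E14 to 1550 to 1589 at P15 and 1299 to 1728 at P60. The 5 cone markers went from 4.90 to 6.95 cpm at E14 to 488 to 620 at P60. The 5 Müller glia markers went from 272 to 279 cpm to 997 to 1198 over the same ages. Rod, amacrine, bipolar, cone and Müller glia sums were thus all higher at P60 than at E14, as were the 5 members that rose. The part of these cell types in those results was not tested. In whole retina, fewer cells of a type and less RNA per cell cannot be told apart, and neither can the rise of a gene within a cell type and the rise of that cell type.

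Mature retina was compared with embryonic retina, taking mature as the mean of P15, P28 and P60 (14 libraries) and embryonic as the mean of E14 and E17 (6 libraries). Scn1a, Scn2a1, Scn8a, Scn2b and Scn4b rose and Scn3a and Scn3b fell. In this comparison 75.4% of the 31760 features tested were called, 35.0% higher and 40.4% lower, so a call alone sets no gene apart. All 5 members that rose did so by at least 2-fold, as did 14.9% of features, and neither of the 2 that fell reached a 2-fold change, while 16.1% of features fell by at least that much. Embryonic and mature libraries did not overlap for the 5 that rose, as for 17.4% of features in that direction, and for Scn3a, as for 23.0% of features. The call was an adjusted p under 0.05 in limma on log2(cpm + 1). The median log2 fold change was 1.64 over the 7 members and -0.06 over all features tested. Over the 7 ages together, limma's F test was past the threshold for 7 of 7 members and for 83.0% of features.

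Scn1a, whose product is a main sodium channel of inhibitory neurons in the brain, had the widest range of the 4 alpha subunit genes as a fold between age means. It stood at 8.70, 7.70 and 8.63 cpm in the E14 libraries, 14.9, 15.001 and 15.9 at E17, and 20.1, 32.0, 24.2 and 26.0 at P1. It then stood at 34.1, 35.6 and 36.8 cpm at P6, and at 93.6, 93.5, 101 and 94.0 at P15. Every age up to P15 lay above the age before it, with no overlap between libraries. At P28 the libraries held 102, 109, 110 and 104 cpm, and the 6 P60 libraries ran from 91.4 through a median of 96.0 to 101 cpm. The P28 mean was 12.7 times the E14 mean, and all 14 mature libraries lay above all 6 embryonic ones. The log2 fold change of mature against embryonic retina was 3.02 ± 0.06 (SE), with an adjusted p of 5.42e-28 in limma.

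Scn2a1, whose product is found at axon initial segments and in unmyelinated axons, rose over a narrower range. It was at 35.1, 29.9 and 33.7 cpm at E14, at 55.9, 55.5 and 56.7 at E17, and at 63.7, 56.0, 59.5 and 64.6 at P1. The libraries held 80.1, 79.3 and 79.6 cpm at P6 and 113, 119, 120 and 132 at P15. At P28 they held 115, 110, 107 and 103 cpm, and at P60 they ran from 93.5 through a median of 109 to 133. The 3 mature ages overlapped, and the highest mean, at P15, was 3.68 times that at E14. Its log2 fold change in mature against embryonic retina was 1.38 ± 0.06 (SE, adjusted p = 1.35e-19 in limma).

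Scn8a, whose product is the main channel of mature initial segments and nodes of Ranvier, had the highest cpm of the 7 genes from P1 onward by its age means. Its libraries held 62.8, 57.6 and 64.9 cpm at E14, 79.4, 73.9 and 84.1 at E17, and 88.1, 88.5, 92.4 and 85.8 at P1. They held 148, 141 and 138 cpm at P6, 197, 210, 211 and 223 at P15, and 185, 206, 216 and 198.5 at P28. At P60 the level ran from 216 through a median of 258 to 279 cpm. No embryonic library reached the lowest mature library, the P60 mean was 4.07 times the E14 mean, and P15 and P28 overlapped. The log2 fold change was 1.64 ± 0.05 (SE, adjusted p = 2.72e-23 in limma).

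Scn3a, known in rodent brain as a channel of embryonic and early postnatal neurons, went the other way. It stood at 98.0, 87.0 and 101 cpm at E14, at 93.2, 89.1 and 86.6 at E17, and at 81.8, 77.4, 80.2 and 86.1 at P1. It stood at 58.6, 62.3 and 58.5 cpm at P6, and at 57.1, 56.6, 55.4 and 55.0 at P15. The P28 libraries held 51.3, 48.0, 46.7 and 43.1 cpm, and the P60 libraries ran from 36.8 through a median of 40.8 to 47.2. Its age means had the order of the ages, with E14 overlapping E17 and P28 overlapping P60. The E14 mean was 2.33 times the P60 mean, so the gene remained well above the floor of detection in adult retina. Its log2 fold change was -0.94 ± 0.05 (SE, adjusted p = 2.2e-16 in limma).

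**Figure D1:**
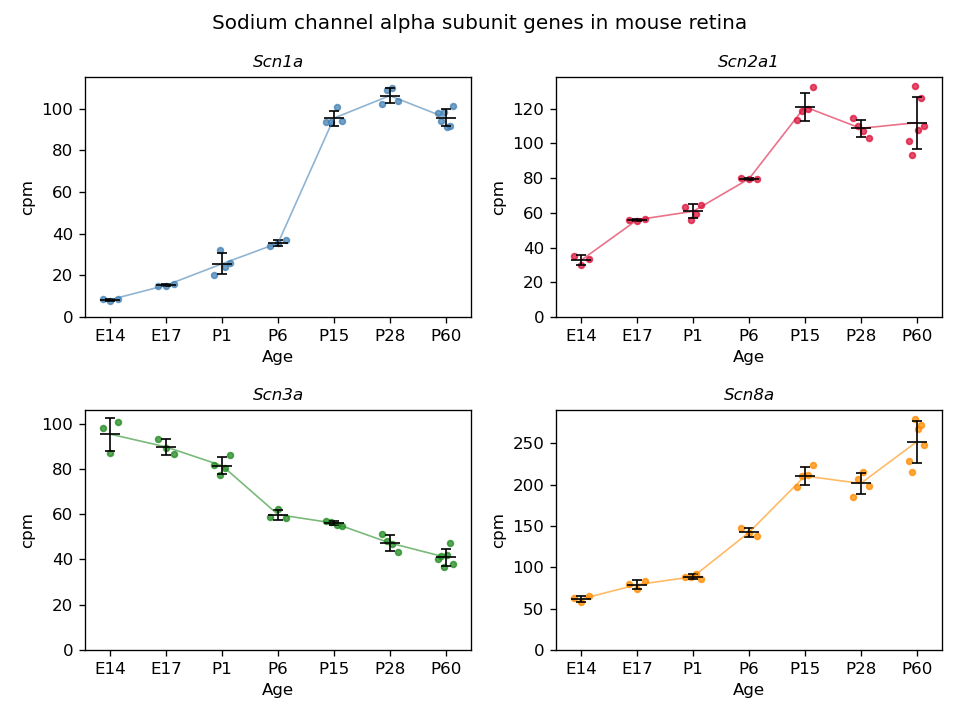
Level in cpm (vertical axes, each from 0) of the 4 alpha subunit genes by age, with a point for each of the 27 libraries, and with black bars for the mean ± SD of an age. Scn1a, Scn2a1 and Scn8a were higher in all 14 mature libraries than in all 6 embryonic ones, and Scn3a was lower in all 14.

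Among the beta subunit genes, Scn2b encodes a subunit that is bonded to the alpha subunit by a disulfide bridge. It was at 2.701, 2.74 and 4.42 cpm at E14, at 4.09, 3.44 and 4.76 at E17, and at 2.94, 3.53, 4.18 and 4.26 at P1. These 10 early libraries overlapped between ages. The level was 9.75, 9.84 and 6.62 cpm at P6, then 41.5, 35.0, 40.6 and 49.2 at P15, and 49.8, 44.7, 46.8 and 44.9 at P28. The P60 libraries ran from 35.9 through a median of 44.2 to 55.9 cpm, overlapping both P15 and P28. The P28 mean was 14.2 times the E14 mean, and the log2 fold change of mature against embryonic retina was 3.28 ± 0.11 (SE, adjusted p = 5.08e-23 in limma).

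Scn4b encodes the other disulfide-bonded beta subunit, known for its part in resurgent sodium current. It had 0 reads in each of the 10 libraries from E14 to P1, which allows up to 3 reads, or 0.316 cpm, in the shallowest embryonic library. At P6 the 3 libraries held 3, 0 and 1 reads. At P15 they held 2.81, 3.29, 2.68 and 2.20 cpm, at P28 they held 4.66, 4.49, 4.19 and 3.39, and the P60 libraries ran from 1.44 through a median of 4.32 to 5.49. The lowest mature library, P60 replicate 4, had 13 reads of the gene. Against the floor of 3 reads per library, the mature mean of 3.67 cpm was at least 11.6-fold higher than the embryonic level (adjusted p = 6.67e-15 in limma). The lower limit covers counting error only.

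Scn3b encodes a beta subunit that associates without a disulfide bridge. Its age means spanned a smaller fold than those of the 6 other genes. It was at 38.1, 38.1 and 37.6 cpm at E14, at 43.1, 38.9 and 39.8 at E17, and at 34.0, 31.3, 33.7 and 30.6 at P1. It was at 43.0, 39.7 and 37.0 cpm at P6, at 37.9, 41.6, 34.9 and 36.3 at P15, and at 26.9, 26.3, 31.7 and 26.6 at P28. The P60 libraries ran from 20.1 through a median of 24.6 to 30.7 cpm. Embryonic and mature libraries overlapped, since P15 was as high as E14, and the lower level lay at P28 and P60. The highest mean, at E17, was 1.64 times that at P60, and the log2 fold change of mature against embryonic retina was -0.40 ± 0.08 (SE, adjusted p = 3.43e-05 in limma).

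**Figure D2:**
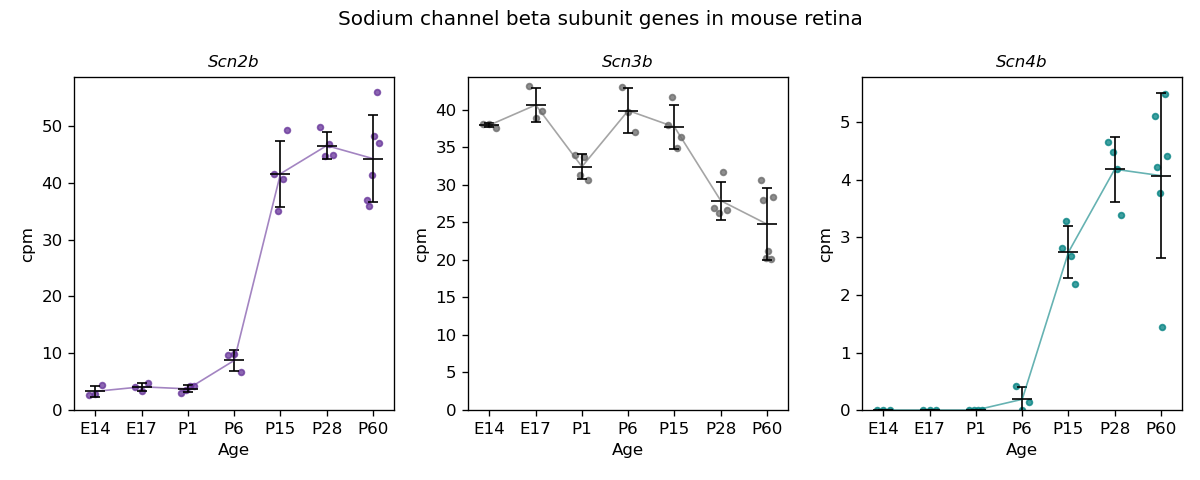
Level in cpm (vertical axes, each from 0 and on its own scale) of the 3 beta subunit genes by age, with a point for each library and black bars for the mean ± SD of an age. Scn2b and Scn4b stood low through P6 and high from P15, while Scn3b stayed between 20.1 and 43.1 cpm in all libraries.

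A switch between subunits is a change in the ratio of their levels, which needs no correction for gene length. The log2 ratio of cpm + 1 was taken within each library for all 6 alpha pairs and all 3 beta pairs, and mature and embryonic libraries were compared by a two-sided exact permutation test, adjusted over the 9 pairs. The ratio of Scn2b to Scn4b is set aside below. Of the 8 others, 7 had an adjusted p of 2.9e-05, from the smallest p that the 38760 splits allow, 2.6e-05, and Scn2a1 to Scn8a had 0.0097. Because several ages make up each group, this tests the shift between age ranges and not a spread among replicates of a single age. The pairs share genes, and no other gene pairs were tested. Since 75.4% of single features were called between mature and embryonic retina in limma, the count of pairs alone sets none apart.

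The widest shift among alpha pairs was of Scn1a to Scn3a. Its log2 ratio was -3.36 ± 0.03 at E14, -2.48 ± 0.10 at E17, -1.65 ± 0.30 at P1 and -0.74 ± 0.07 at P6 (SD, n = 3, 3, 4 and 3). It was 0.76 ± 0.07 at P15, 1.15 ± 0.12 at P28 and 1.21 ± 0.17 at P60 (SD, n = 4, 4 and 6). The mean over mature libraries lay 3.98 above that over embryonic ones, on the log2 scale. The ratio of Scn2a1 to Scn3a shifted by 2.35 and that of Scn3a to Scn8a by -2.64. The ratio of Scn3a to Scn8a was 0.62 ± 0.03 at E14, 0.18 ± 0.12 at E17, -0.12 ± 0.10 at P1 and -1.24 ± 0.08 at P6 (SD). It went on to -1.89 ± 0.10 at P15, -2.07 ± 0.16 at P28 and -2.59 ± 0.19 at P60 (SD). None of these 3 pairs had overlap between embryonic and mature libraries.

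Within the genes that rose, Scn1a gained on both others, by 1.63 on the log2 scale against Scn2a1 and by 1.35 against Scn8a. The ratio of Scn2a1 to Scn8a differed least of the 6 alpha pairs. It was -0.89 ± 0.06 at E14, -0.49 ± 0.08 at E17, -0.79 ± 0.03 at P15, -0.88 ± 0.14 at P28 and -1.17 ± 0.08 at P60 (SD). P15 and P28 thus lay no lower than E14 by their means, and its mature and embryonic libraries overlapped. The mean difference of -0.29 had an exact permutation p of 0.0097.

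Among beta pairs, the ratio of Scn2b to Scn3b shifted by 3.72 on the log2 scale. It was -3.21 ± 0.32 at E14, -3.04 ± 0.19 at E17, -2.83 ± 0.24 at P1 and -2.09 ± 0.21 at P6 (SD). At P15 it was 0.13 ± 0.28, at P28 0.72 ± 0.13 and at P60 0.82 ± 0.46 (SD). The ratio of Scn3b to Scn4b was lower in mature retina with a pseudocount of 1 and of 0.1, but its size depends on the value given to the 0 reads of Scn4b and is not given. For Scn2b to Scn4b the shift was 1.08 with a pseudocount of 1 and -1.62 with a pseudocount of 0.1, so its direction was set by that value and carries no result.

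**Figure D3:**
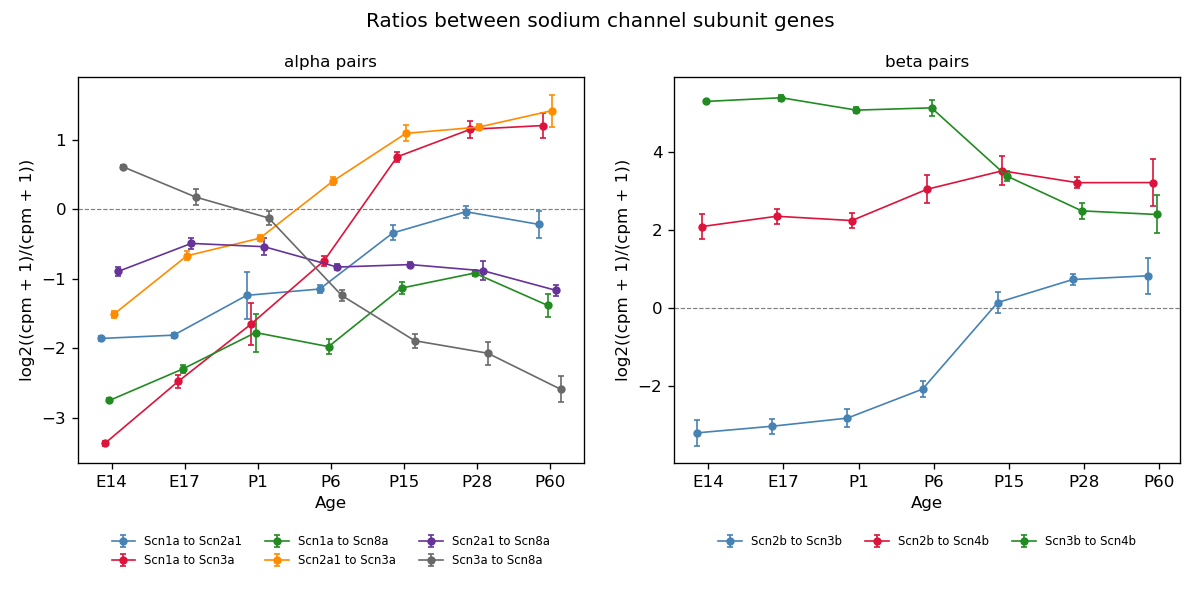
Mean log2 ratio of cpm + 1 between subunit genes (vertical axes) by age, for the 6 alpha pairs and the 3 beta pairs, with error bars of 1 SD over libraries and points set slightly apart for legibility. The ratio of Scn3a to Scn8a went from 0.62 at E14 to -2.59 at P60, and that of Scn2b to Scn3b crossed 0 between P6 and P15.

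To compare levels between genes, cpm was divided by the length of each gene's merged exons in GENCODE M21, from 4.66 kb for Scn2b to 15.77 kb for Scn8a. Per kb, Scn3a was the highest of the 4 alpha subunit genes at E14, at 7.65 cpm per kb, followed by Scn8a at 3.92, Scn2a1 at 2.58 and Scn1a at 0.749. The same order of these 4 held at E17 and at P1, and neighbours in it did not overlap at any of the 3 ages. Scn9a, an alpha subunit gene outside these 4, stood at 7.03 cpm per kb at E14 and 8.14 at E17. Scn3a stood at 7.19 cpm per kb at E17, so at that age it was the highest only among these 4. Scn3a exceeded Scn8a in 10 of 10 libraries up to P1 and in 0 of 17 from P6. At P6 the order was Scn8a, Scn2a1, Scn3a and Scn1a, with 9.03, 6.26, 4.80 and 3.18 cpm per kb. From P15, Scn3a was the lowest of the 4. At P60, Scn8a stood at 15.97 cpm per kb, Scn2a1 at 8.80, Scn1a at 8.59 and Scn3a at 3.29. The libraries of Scn1a and Scn2a1 overlapped at P15 and P60, so their order is not given there.

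Shares were taken of the sums over the members only, which leave out other genes of the family, Scn9a among them. As a share of the summed cpm per kb of the 4 alpha subunit genes, Scn3a went from 51.3% ± 0.388 at E14 to 20.6% ± 0.69 at P6 and 9.01% ± 0.988 at P60 (SD, n = 3, 3 and 6). Scn8a went from 26.3% ± 0.415 to 38.8% ± 1.10 and 43.5% ± 1.56 at the same ages. Scn1a went from 5.03% ± 0.0639 at E14 to 27.5% ± 0.37 at P28 (SD, n = 3 and 4). Scn2a1 held 17.3% at E14 and between 23.9% and 26.9% at all later ages by its means. Among the 3 beta subunit genes, Scn3b held 90.8% ± 2.54 at E14, 79.4% ± 2.62 at P6 and 30.7% ± 6.50 at P60. Scn2b held 9.20% ± 2.54, 20.2% ± 2.67 and 63.8% ± 7.34 at those ages. Scn4b reached 5.49% ± 1.81 at P60.

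Scn3b was above Scn2b per kb in all 13 libraries up to P6. Scn2b was above Scn3b in 3 of 4 libraries at P15, 4 of 4 at P28 and 6 of 6 at P60. With the longest coding transcript as the length instead, 2 of 4 libraries at P15 had Scn2b above Scn3b, so P15 is the age at which their order depended on the length used.

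**Figure D4:**
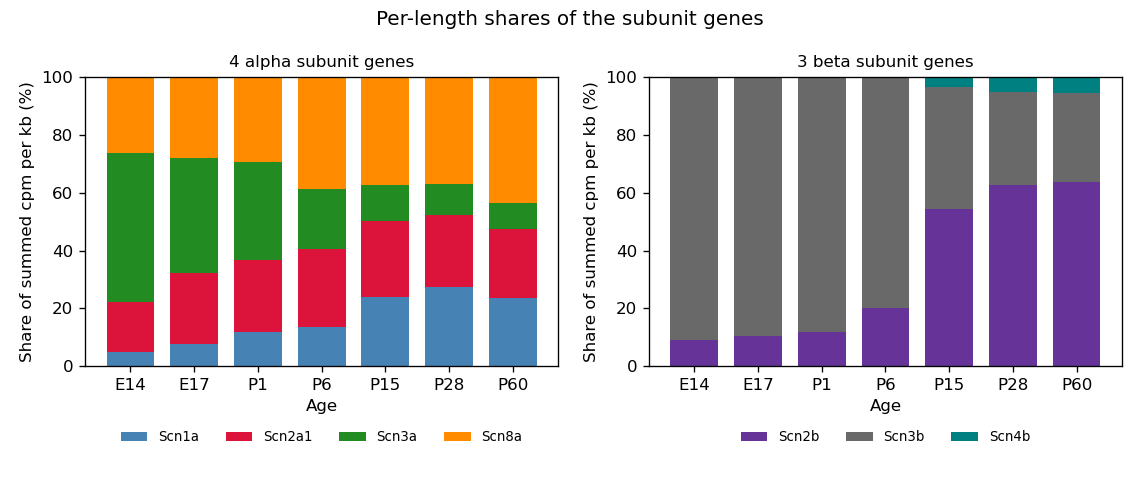
Share, in percent, of the summed cpm per kb that each gene held by age, for the 4 alpha subunit genes and the 3 beta subunit genes, as the mean over libraries of an age. Scn3a held 51.3% of the alpha sum at E14 and 9.01% at P60, and Scn3b held 90.8% of the beta sum at E14 and 30.7% at P60. Other genes of the sodium channel family, such as Scn9a, are not in these sums.

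The timing of each change was read from the steps between neighbouring ages in the same limma fit. From E14 to E17, 3 members rose, where 10.6% of features were called, 7.56% higher and 3.02% lower. These were Scn1a by 0.80 (log2, adjusted p = 1.19e-06), Scn2a1 by 0.76 (adjusted p = 1.12e-06) and Scn8a by 0.35 (adjusted p = 0.00522). The Scn8a call was lost without E14 replicate 2 (adjusted p = 0.0503 in limma). The 4 other members did not pass.

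From E17 to P1 Scn1a rose by 0.69 (log2, adjusted p = 9.4e-06 in limma) and no other member passed, where 9.21% of features were called, 5.77% higher and 3.43% lower. From P1 to P6, 4 members rose and 1 fell, where 38.3% of features were called, 18.0% higher and 20.4% lower. Scn8a rose by 0.68 (adjusted p = 3.53e-08 in limma), Scn2b by 1.03 (adjusted p = 6.23e-06), Scn1a by 0.47 (adjusted p = 0.00027) and Scn2a1 by 0.38 (adjusted p = 0.00137). In this step Scn3a fell by 0.44 (adjusted p = 8.68e-05 in limma), its only step past the threshold. Scn3b differed by 0.29 (adjusted p = 0.0618).

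From P6 to P15, the interval in which the mouse eye opens, 5 members rose and none fell. In this step 33.4% of features were called, 14.4% higher and 19.0% lower. Scn2b rose by 2.14 (log2, adjusted p = 7.64e-12 in limma), Scn1a by 1.40 (adjusted p = 1.09e-12), Scn2a1 by 0.60 (adjusted p = 7.15e-06) and Scn8a by 0.56 (adjusted p = 1.88e-06). Scn4b was at least 6.48-fold higher at P15 (adjusted p = 5.16e-07), taking P6 at the floor of 3 reads. Scn3a and Scn3b differed by -0.09 and -0.08 and did not pass.

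After P15 few steps passed. From P15 to P28 Scn3b fell by 0.42 (log2, adjusted p = 0.0359 in limma), where 2.72% of features were called, 1.14% higher and 1.58% lower. This call was lost when any of 7 of the 8 libraries was left out, with an adjusted p of up to 0.136. From P28 to P60 Scn8a rose by 0.32 (adjusted p = 0.00678 in limma), where 12.9% of features were called, 4.80% higher and 8.11% lower. It stayed past the threshold when any P28 or P60 library was left out. With only these 2 ages in the fit its adjusted p was 0.153. The variance summed over features was 4915 at P60 and 1843 at P28, and its part in this change was not tested.

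**Figure D5:**
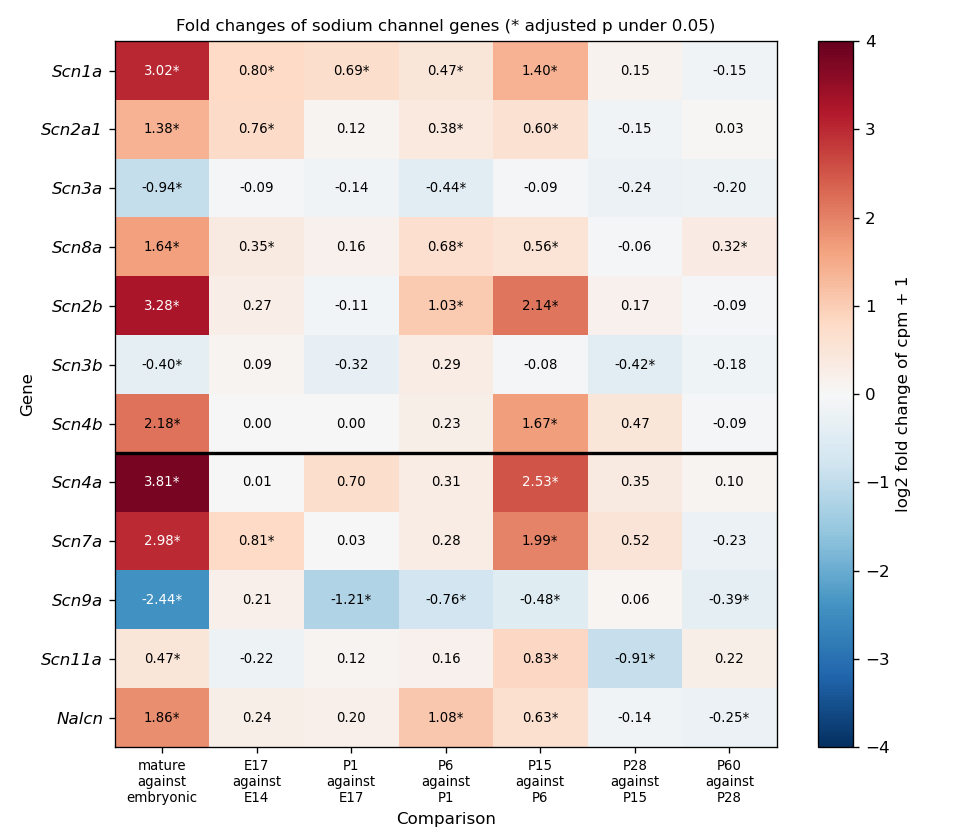
Log2 fold change of cpm + 1 for the 7 members (above the line) and for 5 other genes of the sodium channel family (below it) in mature against embryonic retina and in the 6 steps between neighbouring ages, with an asterisk for an adjusted p under 0.05 in limma. Most rises of the members lay in the steps up to P15. The Scn4b values depend on the pseudocount, as it had 0 reads up to P1.

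The 7 genes lie on 3 mouse chromosomes (GRCm38, GENCODE M21). Scn3a (chr2:65457118-65567627, minus strand), Scn2a1 (chr2:65620771-65767447, plus strand, annotated as Scn2a) and Scn1a (chr2:66270778-66440840, minus strand) share a cluster on chromosome 2. In it, 53.1 kb separate Scn3a from Scn2a1, the neighbours that moved in opposite directions. Scn8a is on chromosome 15 (chr15:100869858-101045938, plus strand). The 3 beta subunit genes are on chromosome 9, all on the plus strand. Scn3b is at chr9:40269217-40291618, Scn2b at chr9:45117782-45130070 and Scn4b at chr9:45138395-45154152. Scn2b and Scn4b, both low before P6 and high from P15, lie 8.3 kb apart in the same orientation, 4826 kb beyond Scn3b. Scn1a, Scn3a, Scn2b and Scn3b each overlap a gene annotated on the opposite strand, but share 0 exon bases with it.

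The neighbours Scn2b and Scn4b both rose from P6 to P15, as did Scn1a, Scn2a1 and Scn8a, where 14.4% of features were called higher. Scn2b had also risen from P1 to P6. The promoter windows of both genes are shown, from 250 bases before to 50 bases after the RefSeq start (GRCm38.p6, plus strand, 5′ to 3′). Capitals mark CpG dinucleotides, the sites of DNA methylation in mammals. The Scn2b window is chr9:45117626-45117925 and the Scn4b window is chr9:45138374-45138673. The GENCODE gene starts lie before the RefSeq starts, at 45117782 for Scn2b and 45138395 for Scn4b. By GENCODE, part of the Scn2b window and most of the Scn4b window thus lie within the gene.
Scn2b: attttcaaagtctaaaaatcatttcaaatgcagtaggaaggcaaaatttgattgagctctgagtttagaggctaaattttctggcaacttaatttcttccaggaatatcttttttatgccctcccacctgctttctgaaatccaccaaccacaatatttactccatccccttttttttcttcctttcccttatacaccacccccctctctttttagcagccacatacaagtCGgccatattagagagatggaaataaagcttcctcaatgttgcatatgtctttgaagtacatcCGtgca
Scn4b: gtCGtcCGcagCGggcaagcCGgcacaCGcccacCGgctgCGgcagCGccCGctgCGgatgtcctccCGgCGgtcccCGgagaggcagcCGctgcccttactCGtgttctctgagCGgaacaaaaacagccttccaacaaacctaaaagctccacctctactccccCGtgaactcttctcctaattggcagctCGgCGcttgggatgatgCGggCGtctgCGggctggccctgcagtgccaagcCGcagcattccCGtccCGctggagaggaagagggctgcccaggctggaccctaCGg

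The pair differ in base composition. The Scn2b window had 2 CpG and 38.3% GC, and the Scn4b window 26 CpG and 66.3% GC, while the median over 32851 RefSeq windows was 7 CpG and 52.7% GC. At most 2 CpG occurred in 23.3% of windows, and at least 26 in 16.9%. RefSeq windows were matched for 5 of the 7 members, 7 windows in all, and Scn3a and Scn3b had no entry in the table used. The other windows held 38 and 12 CpG for Scn8a, 3 and 9 for Scn2a1 and 5 for Scn1a, so members that rose had windows both above and below the median. The 8-letter motif TCAGCACC, a part of the site bound by the repressor REST, was searched on both strands. It was in 0 of the 7 windows and in 1.65% of all windows. No match says only that these letters are not in these windows.

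Of 8 further genes of the sodium channel family, 7 were listed in the table, Scn10a not being found by its symbol. In mature against embryonic retina 5 rose, 1 fell and 1 did not pass, where 35.0% of all features were called higher and 40.4% lower. Scn9a (Nav1.7), an alpha subunit gene in the same cluster on chromosome 2, fell by 2.44 on the log2 scale (adjusted p = 2.82e-22 in limma). It was at 89.7 ± 5.01 cpm at E14, 104 ± 5.91 at E17, 44.4 ± 4.75 at P1 and 14.4 ± 2.20 at P60 (SD, n = 3, 3, 4 and 6). Scn9a shares 180 exon bases with an antisense gene, and reads of the pair cannot be told apart if counting ignored the strand.

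Scn4a (Nav1.4), best known from skeletal muscle, went from 0.344 cpm at E14 to 21.1 ± 6.19 at P60 (SD, n = 6), a log2 fold change of 3.81 (adjusted p = 2.01e-20 in limma). Beside it, 2 of the 5 skeletal muscle markers listed were found, Ckm and Acta1. They summed to between 0 and 6.46 cpm over all libraries, also higher at mature ages, and their part in the Scn4a values was not tested. Scn7a rose by 2.98 and the sodium leak channel gene Nalcn by 1.86 (log2, adjusted p = 8.18e-19 and 2.27e-23 in limma). Scn11a was at 1.36 ± 0.557 cpm at P15 and under 0.5 by its mean at every other age.

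Sodium channels are held at the axon initial segment and at nodes of Ranvier by a scaffold of ankyrin G, beta IV spectrin and the adhesion molecule neurofascin. Of 19 genes for this scaffold and for other partners of the channels, 10 rose, 8 fell and 1 did not pass in mature against embryonic retina. Their median log2 fold change was 0.31. Over all features 35.0% were called higher and 40.4% lower in this comparison, so these counts set the list apart in neither direction. Sptbn4 (beta IV spectrin) rose by 2.86 (log2, adjusted p = 5.37e-19 in limma), from 2.20 ± 0.551 cpm at E14 to 52.4 ± 15.9 at P60. It shares 243 exon bases with a gene on the opposite strand and 134 with a gene on its own strand, whose reads cannot be told apart from its own there. Nfasc (neurofascin) rose by 1.58 (adjusted p = 1.65e-23), through 232 ± 5.06 cpm at E14, a low of 107 ± 6.50 at P1 and 549 ± 33.4 at P15. Ank3 (ankyrin G) was abundant at every age and fell by 0.28 (adjusted p = 5.35e-08), from 1001 ± 5.94 cpm at E14 to 829 ± 47.4 at P60.

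Fgf14, whose product binds the tail of alpha subunits, fell by 0.33 (log2, adjusted p = 0.00442 in limma) and shares 220 exon bases with an antisense gene. Rest, which encodes the repressor of neuronal genes known to act on Scn2a1 in non-neuronal cells, fell by 1.50 (adjusted p = 1.38e-20), from 107 ± 5.26 cpm at E14 to 42.0 ± 1.91 at P6 and 34.4 ± 2.61 at P60 (SD, n = 3, 3 and 6).

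The genes most like each member over the 27 libraries were ranked by Pearson's r of log2(cpm + 1) among 10994 features with a Gene ID and a mean of at least 10 cpm. All libraries share the ages, so r is high for any pair of genes with the same course, and the values are a description. Nearest to Scn1a were Adarb1 (r = 0.993), an RNA-editing enzyme gene, Kcnc1 (r = 0.990), a fast potassium channel gene, and Sorl1 (r = 0.989). Nearest to Scn2a1 were Atp2b2 (r = 0.987), a plasma membrane calcium pump gene, Pcdh9 and Ahnak2. Nearest to Scn8a were Man2a2 (r = 0.995), Psd and Ppm1n, and nearest to Scn3a were Gng2 (r = 0.975), Tspan18 and B3gnt5. For Scn2b they were F630040K05Rik (r = 0.991), Zan and Pdzph1, and for Scn4b 6430562O15Rik (r = 0.976), Slc17a3 and Tmem136. Scn3b had the least close neighbours, C530030P08Rik (r = 0.899), C230071H17Rik and Zfp322a.

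Markers of other tissues were read beside these results. Retinal pigment epithelium markers, 4 of 4 listed, summed to 1.05 to 3.60 cpm at E14, 13.8 to 19.5 at P6, 33.3 to 61.0 at P15 and 10.7 to 51.5 at P60, higher at the ages where 5 members were higher, and their part in the result was not tested. The optic nerve oligodendrocyte markers Mag and Mobp were under 0.5 cpm by their mean at every age, and the whole list of 5 summed to 22.3 to 49.5 cpm. Lens markers, 3 of 4 listed, summed to 0.49 to 5.03 cpm and blood markers, 4 of 4, to 10.7 to 49.9 cpm over all libraries.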

How the data were processed

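Total RNA of whole retinas was made into libraries by the authors with the SMARTer total RNA kit, sequenced as single-end reads and aligned to GRCm38 with STAR. The authors deposited CPM values, the reads of a feature scaled to a fixed library total, and the annotation and strand setting are not given in the sources used here. Retinas were pooled per library, so p-values measure the spread between pools, or between single mice for some P60 libraries. Nothing says whether the pools of an age came from separate litters.

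Values were whole multiples of 1 read (100% within 0.05 reads), and totals were recovered from that step, although in E14 replicate 1 the step lay too near a round decimal for this to be judged. Repeated libraries differed by more than counting noise (smallest chi-square per degree of freedom 1.72). Members and lists were chosen with earlier results of these data known. Repeated symbols were read at the entry with the highest mean CPM.

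The 31760 features that reached 1 CPM in 3 or more libraries were fitted as log2(CPM + 1) with limma 3.58.1 in R 4.3.3 (mean-variance trend, age as factor, all 27 libraries, two-sided, Benjamini-Hochberg over all features). Fold changes on this scale understate low genes. Pair ratios used exact permutation tests in Python 3.11.15. A group at or under 3 reads per library was taken as a lower bound. The genes named were the 7 members, further family genes, a few of the 19 partners and, per member, the 3 features most alike. Some genes of these lists are counted but not reported singly here.

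Alternatives were a pseudocount of 0.1, no filter, a filter at a mean of 10 CPM, median-of-ratios scaling, the replicate block, edgeR 4.0.16 on the recovered reads, only the ages compared, summed entries of a symbol and leaving out each library. EdgeR without E14 replicate 1 was added after seeing the data for that reason. The fits were tested on simulated data.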

Additional observations from a re-analysis of the deposited data

Results flagged for a closer look

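Among 27 groups of 4 to 6 libraries of the members, 2 held a library set apart from the others by Dixon's criterion, which chance gives in about 1 of 20 groups. Scn1a was at 100.8 cpm in P15 replicate 3, with the nearest other P15 library at 94.02. Scn3b was at 31.66 cpm in P28 replicate 3, with the nearest other P28 library at 26.91.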

How the results depend on the processing

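Mature against embryonic retina, all 7 members kept their direction and stayed past the threshold under all alternatives that gave a value, as did the F test over the 7 ages, and the steps P6 against P1 and P15 against P6 had 5 members past the test under each library left out. No value of Scn4b was had with a filter at a mean of 10 CPM. The number of members past the test from E17 to P1 went from 1 to 2 in edgeR and with only the ages compared, where Scn3b passed. From P15 to P28 it went from 1 to 2 with a filter at a mean of 10 CPM, and lay between 0 and 1 when a library was left out. From P28 to P60 it went from 1 to 2 with that filter, to 0 with only the ages compared, and lay between 1 and 2 when a library was left out, with 2 without P28 replicate 4, P60 replicate 2 or P60 replicate 5, where Scn3a passed. From E14 to E17 it lay between 2 and 3 when a library was left out. The log2 ratio of Scn2b to Scn4b reversed to -1.618 with a pseudocount of 0.1 (adjusted exact permutation p = 8.7e-05), since Scn4b had 0 reads in all embryonic libraries.

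Reversals among steps that did not pass were of values near 0. From P28 to P60 Scn2a1 stood at -0.008141 with the replicate block, and between -0.01824 (without P60 replicate 3) and 0.08251 when a library was left out, with -0.002961 without P60 replicate 5. In the same step Scn4b stood at 0.004686 in edgeR and between -0.174 and 0.1089 (without P60 replicate 4) when a library was left out. The Scn8a rise from E14 to E17 missed the threshold with median-of-ratios scaling (adjusted p = 0.0594 in limma) and in edgeR without E14 replicate 1 (adjusted p = 0.0746). From P1 to P6 Scn3b passed with the mean filter, median-of-ratios scaling, edgeR and only the ages compared (adjusted p = 0.0129 to 0.0441), and Scn4b passed with a pseudocount of 0.1 and in edgeR (adjusted p = 0.0357 and 0.0497). The cause of these changes was not tested.

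No sign was found that replicate numbers pair the samples, though a weak link could be missed. Over 69 pairs of same-numbered libraries of different ages, the correlation of their deviations ran from -0.129 to 0.167 with a median of -0.00178, 3 were over 0.1, and 7 of 27 libraries correlated best with their own number. The replicate block changed no call of a member. Median-of-ratios scaling moved the median of all features by at most 0.06 (log2). In mature against embryonic retina that median was -0.06 in the main fit and 0.04 in edgeR. At 7077781 to 11332323 counted reads per library, a gene at 0 reads may be present at up to 0.422 cpm in mature libraries. Gene totals do not resolve exons, and whole retina does not resolve cells.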

Other observations

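Within the P60 libraries Scn3b and Scn8a were read side by side after their values were seen. Scn3b was at 30.7, 28.02, 20.2, 21.2, 20.1 and 28.3 cpm in replicates 1 to 6, and Scn8a was at 228, 216, 279, 268, 272 and 248 cpm. Replicates 1, 2 and 6 held the 3 highest values of Scn3b and the 3 lowest of Scn8a. The P60 libraries also differed over all features. The chi-square per degree of freedom between libraries was 3.29 between replicates 1 and 2, 4.62 to 9.31 among replicates 3 to 6, 8.36 and 8.89 between replicate 6 and replicates 1 and 2, and 13.4 to 21.5 between replicates 1 or 2 and replicates 3 to 5. Median-of-ratios factors were 0.967 to 0.993 for replicates 1, 2 and 6, and 0.853 to 0.918 for replicates 3 to 5. The labels used here do not say which P60 libraries were pools and which were single mice, and no test was made.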
